A study of Gallus gallus with 20 samples.

Results

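Taurine is a sulfur-containing amino acid that cells either import or make from cysteine. The genes described here are those of taurine import and taurine synthesis in liver and breast muscle of chickens, 4 names in all: SLC6A6, CDO1, CSAD and ADO. They were looked up by name among the 27170 genes of a table of RNA sequencing counts, and 3 of the 4 were found. No row is named ADO, and that gene was not analysed here. The names were chosen by measured values of these libraries, namely the level of SLC6A6 in organic against conventional liver. The comparison of raising systems in liver is therefore a description without a test. The breast muscle libraries were not used in that choice, and the raising systems are tested there. The tissues are compared by the mean of both raising systems, a different contrast, which is tested but contains the same liver libraries.

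SLC6A6 encodes the taurine transporter, which carries taurine into cells together with sodium and chloride. CDO1 encodes cysteine dioxygenase, which oxidises cysteine to cysteine sulfinic acid, and CSAD encodes the decarboxylase that turns this product into hypotaurine, the direct precursor of taurine. ADO provides another route to hypotaurine, from cysteamine released during breakdown of coenzyme A. In liver, taurine is joined to bile acids before they are secreted, and in skeletal muscle it is an abundant osmolyte.

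The birds were KRC chickens, a slow-growing, mixed-sex flock, with 125 chicks assigned to each of 2 raising systems. Organic birds ate feed made only of organic raw materials and could go out onto a Ruzi grass pasture from day 21, whereas conventional birds ate a commercial feed and stayed indoors. Both systems used 5 indoor pens of the same controlled house, and the birds were slaughtered at 91 days. Effects of feed and of pasture cannot be told apart, because they changed together. There were 5 organic liver, 5 conventional liver, 5 organic breast muscle (pectoralis major) and 5 conventional breast muscle libraries, numbered replicates 1 to 5. The pen of each bird was not used here, and because the labels do not say how sampled birds were spread over pens, p-values measure the spread between these samples only.

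Library totals were 14065269 to 20488526 counts in liver, with organic replicate 1 the deepest, and 12699692 to 13417005 counts in breast muscle. The tissue labels were checked against marker genes, whose levels were summed in CPM, counts scaled to library size. Hepatocyte markers, 9 of 10 in the table, summed to 127499 to 236415 CPM in organic liver, 158409 to 209086 CPM in conventional liver, 498 to 958 CPM in organic breast muscle and 320 to 1615 CPM in conventional breast muscle. Skeletal muscle fibre markers, 5 of 8 in the table, summed to at most 6.68 CPM in any liver library and at least 86249 CPM in any breast muscle library. Every library carried the markers of its labelled tissue. These are bulk tissues, in which fewer cells of a type and less RNA per cell cannot be told apart.

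Levels are given as FPKM, a read count scaled to gene length and to a scaling factor for each library, as the authors deposited them. SLC6A6 (ENSGALG00000006425) lies on chromosome 12 at 11318269 to 11407020, forward strand, in the assembly GRCg6a. CDO1 (ENSGALG00000002358) lies on chromosome Z at 73146956 to 73156876, and CSAD (ENSGALG00000035850) on chromosome 33 at 7224089 to 7228779, also on the forward strand. SLC6A6 and CDO1 overlap no other gene of the table. CSAD shares 307 bases with ZNF740 on the opposite strand, a gene with 152 to 322 counts per library, and since the sources used here do not give the counting rule, some reads of that stretch could have been assigned to either gene.

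In liver, SLC6A6 had the largest difference between the raising systems among the members. Its level was 10.3, 8.56, 14.1, 11.8 and 16.8 FPKM in organic liver replicates 1 to 5, against 40.7, 29.3, 34.2, 13.5 and 36.9 FPKM in conventional liver replicates 1 to 5. Conventional replicate 4 was the exception of its group and lay inside the organic range, so the groups overlapped through that library. The means were 12.3 ± 3.25 FPKM in organic liver and 30.9 ± 10.6 FPKM in conventional liver (SD, n = 5 each), a ratio of 0.398. The counts behind these values were 330 to 816 in organic liver and 561 to 1817 in conventional liver. The log2 fold change, organic over conventional, was -1.34 ± 0.28 (SE). Leaving out single libraries gave values from -1.53, without conventional replicate 4, to -1.22, without conventional replicate 1. Of 13186 genes tested in liver, 0.683% had a larger absolute log2 fold change.

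**Figure D1:**
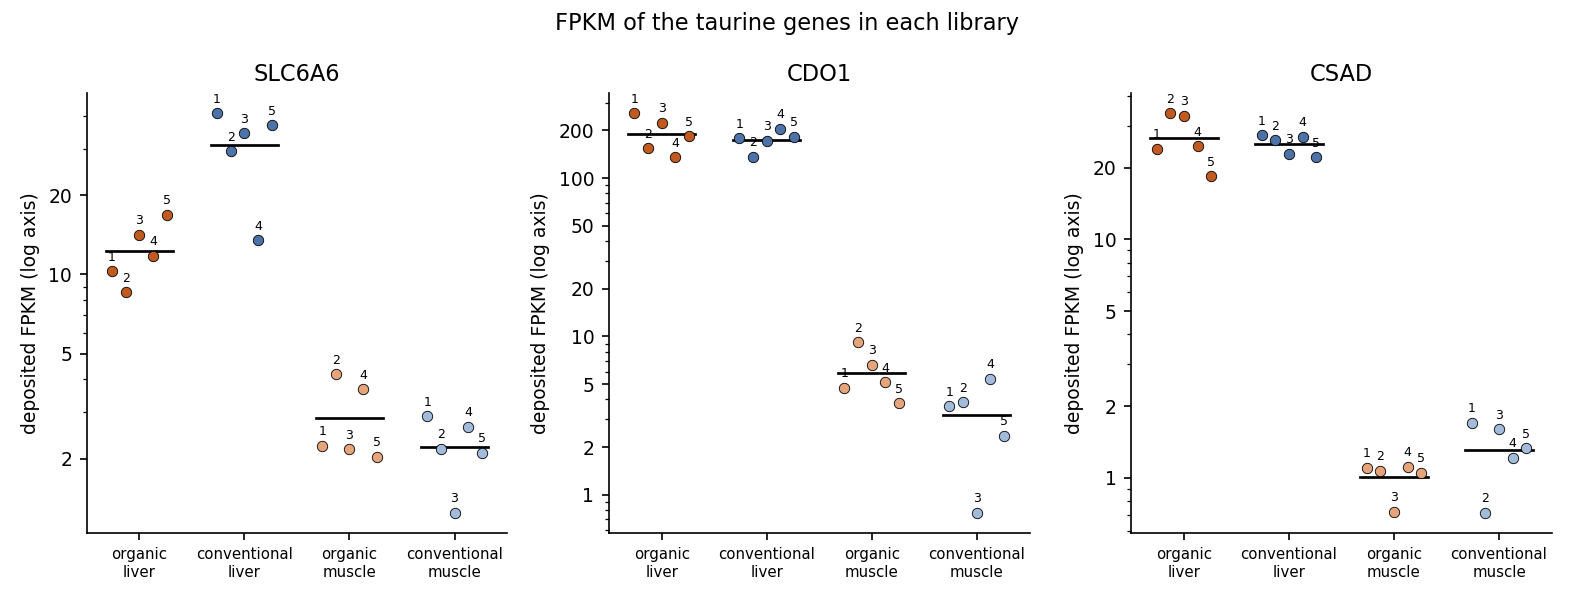
Level of SLC6A6, CDO1 and CSAD in each of the 20 libraries, as deposited FPKM on a log axis, with a bar at each group's mean. SLC6A6 sits lower in organic than in conventional liver except for conventional replicate 4, and all 3 genes sit higher in every liver than in every breast muscle library.

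The synthesis enzymes did not share that pattern. CDO1 had 256, 155, 224, 136 and 184 FPKM in organic liver replicates 1 to 5, against 178, 137, 173, 206 and 183 FPKM in conventional liver replicates 1 to 5. The organic libraries spread to both sides of the conventional ones, and the highest was the deepest library, organic replicate 1. The means were 191 ± 49.3 FPKM in organic liver and 175 ± 25.0 FPKM in conventional liver (SD, n = 5 each), and the log2 fold change was 0.11 ± 0.18 (SE).

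CSAD had 24.1, 33.8, 33.0, 24.6 and 18.4 FPKM in organic liver replicates 1 to 5, against 27.3, 26.0, 22.9, 27.0 and 22.1 FPKM in conventional liver replicates 1 to 5. The conventional values lay within the organic range. The means were 26.8 ± 6.52 FPKM in organic liver and 25.1 ± 2.42 FPKM in conventional liver (SD, n = 5 each), and the log2 fold change was 0.08 ± 0.15 (SE). For both enzymes the sign of this small difference turned when single organic libraries were left out, with a range of -0.01 to 0.20 for CDO1 and -0.01 to 0.18 for CSAD.

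The relative levels of import and synthesis genes in liver can be read from ratios within a library. The ratio of SLC6A6 to CSAD FPKM was 0.428, 0.253, 0.428, 0.479 and 0.914 in organic liver replicates 1 to 5, against 1.49, 1.12, 1.49, 0.50 and 1.67 in conventional liver replicates 1 to 5. Thus CSAD stood above SLC6A6 in all 5 organic livers and in 1 of 5 conventional livers, replicate 4. Ratios with SLC6A6 contain the liver levels that chose the gene. Their differences between the raising systems are therefore descriptions and not a separate result. CDO1 was the highest of the 3 genes in all 10 livers. Its ratio to SLC6A6 was 10.9 to 24.9 in organic liver and 4.38 to 15.2 in conventional liver, with the value of 15.2 again from replicate 4. The ratio of CDO1 to CSAD was 7.51 ± 2.69 in organic liver and 7.04 ± 1.18 in conventional liver (SD, n = 5 each).

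**Figure D2:**
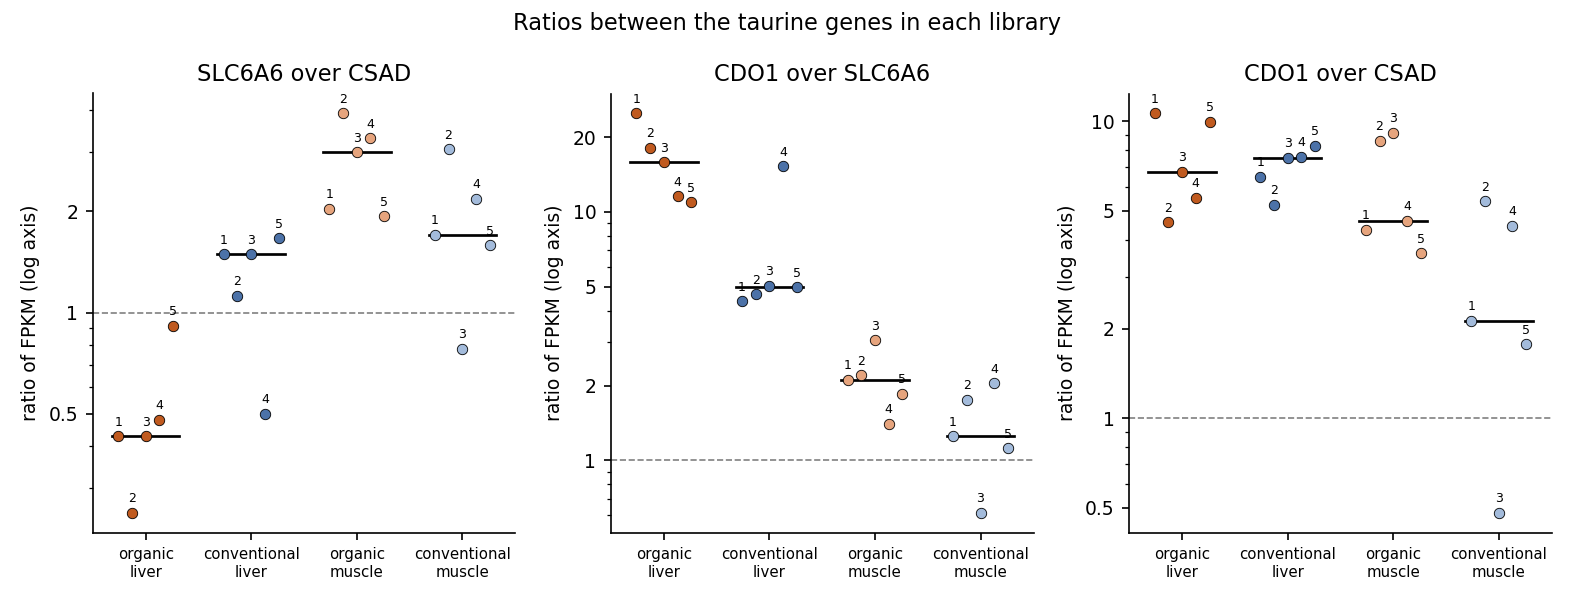
Ratios between the members' FPKM in each library, on a log axis, by group, with a bar at each group's median. The SLC6A6 to CSAD ratio is under 1 in all 5 organic livers and above 1 in 4 of 5 conventional livers. It contains the SLC6A6 levels that chose the gene. The CDO1 to CSAD ratio overlaps between the livers of both raising systems.

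Across all genes in liver, the quasi-likelihood test of edgeR called 0 of 13186 at an adjusted p under 0.05, which is 0% of the genes tested, while 997 had an unadjusted p under 0.05. DESeq2 called 27 genes, or 0.139% of those it tested, and since this contrast chose the members no call on them is given. FPKM values did not overlap between the raising systems for 1.08% of genes, and none of the 3 members was among these. Markers of other cell types were compared as values, and their groups overlapped. Fibroblast and stellate cell markers, all 8 in the table, summed to 229 to 405 CPM in organic liver and 399 to 550 CPM in conventional liver. Conventional replicate 4, the library with low SLC6A6, had 399 CPM of them, the lowest of its group. Conventional replicate 3 was close to it at 401 CPM, with SLC6A6 at 34.2 FPKM. Replicate 4 also had the highest sums of its group for hepatocyte (209086 CPM), endothelial (634 CPM), macrophage (1457 CPM) and adipocyte markers (91.4 CPM). Its erythrocyte marker sum was the lowest of the group (185 CPM). Cholangiocyte markers, all 5 in the table, summed to 57.8 to 137 CPM in organic liver and 86.0 to 147 CPM in conventional liver. The part of these cells in the SLC6A6 values was not tested.

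Among genes with a symbol, those whose log2 CPM followed SLC6A6 most closely over the 10 livers were FIGN (r = 0.96), UBR1 (r = 0.96), ANAPC5 (r = 0.96), MICALL1 (r = 0.95) and C3orf18 (r = 0.94). These correlations, picked from the top of 13186 genes, are descriptions over 10 libraries that include the difference between the raising systems. With the group means removed they were 0.88 to 0.91. FIGN averaged 0.328 FPKM in organic liver and 0.791 FPKM in conventional liver, and UBR1, a ubiquitin ligase, 3.88 FPKM in organic liver and 5.63 FPKM in conventional liver. Neither synthesis enzyme resembled the transporter, with r = -0.17 for CDO1 and r = -0.34 for CSAD.

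In breast muscle, no member passed the test between the raising systems, and the signs differed from gene to gene. SLC6A6 had 2.25, 4.19, 2.17, 3.67 and 2.04 FPKM in organic breast muscle replicates 1 to 5, against 2.90, 2.19, 1.25, 2.65 and 2.11 FPKM in conventional breast muscle replicates 1 to 5. Organic replicates 2 and 4 were the highest libraries and conventional replicate 3 was the lowest, and the groups overlapped. The means were 2.86 ± 0.994 FPKM in organic and 2.22 ± 0.633 FPKM in conventional breast muscle (SD, n = 5 each). The log2 fold change of 0.34 ± 0.27 (SE) had an adjusted p of 0.781 in edgeR. It was 0.16 without organic replicate 2, 0.19 without conventional replicate 3 and 0.46 without conventional replicate 1.

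CDO1 had 4.75, 9.21, 6.61, 5.15 and 3.79 FPKM in organic breast muscle replicates 1 to 5, against 3.63, 3.84, 0.769, 5.40 and 2.36 FPKM in conventional breast muscle replicates 1 to 5. All 5 organic libraries lay above the conventional mean, 2 of them above every conventional library, and the groups overlapped. The low value of conventional replicate 3 came from 13 counts. The means were 5.90 ± 2.11 FPKM in organic and 3.20 ± 1.74 FPKM in conventional breast muscle (SD, n = 5 each). The log2 fold change was 0.85 ± 0.40 (SE), with an unadjusted p of 0.0537 and an adjusted p of 0.66 in edgeR. In DESeq2 it was 0.87 ± 0.40, with an unadjusted p of 0.0290 and an adjusted p of 0.581. CDO1 is on the sex chromosome Z, in a mixed-sex flock. From library to library, chromosome Z genes shifted against autosomal genes by a median of -0.07 to 0.07 on the log2 scale. The part of sex in the CDO1 values was not tested.

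CSAD went the other way, with 1.10, 1.07, 0.722, 1.11 and 1.05 FPKM in organic breast muscle replicates 1 to 5, against 1.70, 0.713, 1.60, 1.21 and 1.33 FPKM in conventional breast muscle replicates 1 to 5. Of the conventional libraries, 4 lay above every organic one and replicate 2 lay below every organic one. The means were 1.01 ± 0.163 FPKM in organic and 1.31 ± 0.389 FPKM in conventional breast muscle (SD, n = 5 each). The log2 fold change of -0.40 ± 0.27 (SE) had an adjusted p of 0.736 in edgeR. These values rest on 24 to 36 counts per organic library and 25 to 59 counts per conventional library.

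Over all genes in breast muscle, edgeR called 0 of 12496 (0%) at an adjusted p under 0.05, with 934 at an unadjusted p under 0.05. DESeq2 called 10 genes, or 0.0605% of those it tested, none of them a member. Values did not overlap between the raising systems for 1.26% of genes, and no member was among these.

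**Figure D3:**
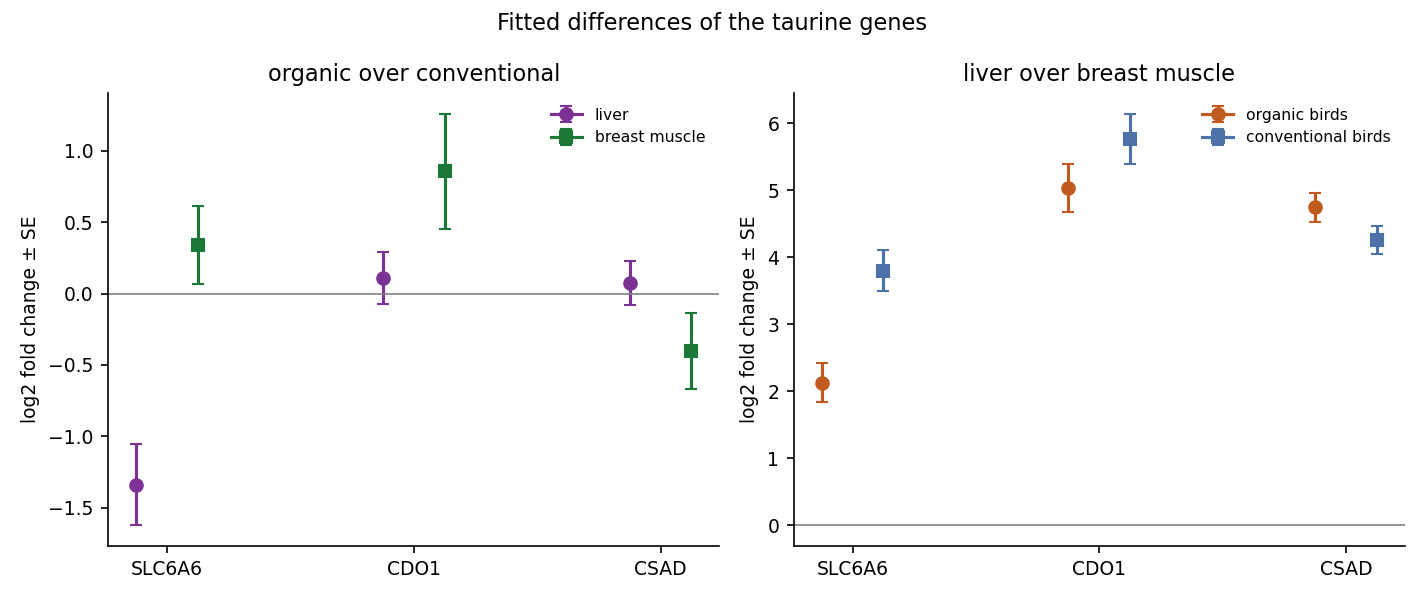
Log2 fold changes of SLC6A6, CDO1 and CSAD with their SE, organic over conventional in liver and in breast muscle (left) and liver over breast muscle in organic and in conventional birds (right). The tissue differences run between 2.13 and 5.77, and among the differences between raising systems the farthest from 0 is -1.34 for SLC6A6 in liver.

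The ratios between members were also compared within breast muscle libraries. CDO1 over CSAD was 4.31, 8.61, 9.16, 4.63 and 3.60 in organic breast muscle replicates 1 to 5, against 2.13, 5.39, 0.480, 4.45 and 1.77 in conventional breast muscle replicates 1 to 5. Organic replicates 2 and 3 were above all conventional libraries and conventional replicates 1, 3 and 5 were below all organic ones, while the rest overlapped. The ratios were examined after the members' values had been seen, and CDO1 and CSAD had differences of opposite sign, which add up in their ratio. The mean log2 ratio was higher by 1.40 in organic breast muscle, with a two-sided exact permutation p of 0.0714, where 5 against 5 libraries can reach 0.00794. CDO1 over SLC6A6 was higher by 0.72 (exact permutation p = 0.0556) and SLC6A6 over CSAD by 0.69 (exact permutation p = 0.0952). Adjusted over the 3 ratios by the Benjamini-Hochberg method, each exact permutation p was 0.0952, so none passed 0.05.

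Over the 10 breast muscle libraries, SLC6A6 and CDO1 varied together on the log2 CPM scale, with Pearson's r = 0.81 (permutation p = 0.00632, adjusted p = 0.0379 over 6 relations). Spearman's rho was 0.62 (permutation p = 0.0606, adjusted p = 0.16). Without conventional replicate 3 and organic replicate 2, the libraries farthest from the median of SLC6A6, r was 0.26, so the relation was not seen without them. Leaving out the lowest and the highest library also narrows the range. The lower r therefore cannot show how far the relation depends on those libraries. SLC6A6 and CSAD gave r = -0.12 (permutation p = 0.737), and CDO1 and CSAD r = -0.55 (permutation p = 0.102).

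Fibroblast markers were highest in organic replicate 2 and lowest in conventional replicate 3, of which only organic replicate 2 stood apart from the other libraries. The 8 markers summed to 5344 to 16302 CPM in organic breast muscle, and to 4454 to 10481 CPM in conventional breast muscle. Their sum and SLC6A6 gave r = 0.74 (permutation p = 0.0147, adjusted p = 0.0440) and rho = 0.67 (permutation p = 0.0383, adjusted p = 0.16), and r was 0.31 without those libraries. With CDO1 the marker sum gave r = 0.62 (permutation p = 0.0517) and with CSAD r = 0.056 (permutation p = 0.876). The part of connective tissue cells in the breast muscle values was not tested. The genes most like SLC6A6 in breast muscle, as descriptions over 10 libraries, were AASS (r = 0.92), SEC62 (r = 0.92), PICALM (r = 0.92), ANGPTL2 (r = 0.91) and PLA2G4EL2 (r = 0.90). CDO1 took rank 91 of 12496 genes there.

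All 3 genes were higher in liver than in breast muscle. The fitted differences were larger for the synthesis enzymes than for the transporter, and differences between genes were not tested. In conventional birds the log2 fold changes of CSAD (4.26 ± 0.21) and SLC6A6 (3.80 ± 0.31) were close. In organic birds, whose liver level of SLC6A6 was used to choose the gene, they were 4.75 ± 0.21 and 2.13 ± 0.29 (SE). CDO1 had a log2 fold change of 5.40 ± 0.26 (SE, adjusted p = 2.88e-14 in edgeR), liver over breast muscle. CSAD had 4.50 ± 0.15 (adjusted p = 4.58e-17 in edgeR) and SLC6A6 2.96 ± 0.21 (adjusted p = 2.55e-11 in edgeR). Differences between tissues were common: edgeR called 42.5% of 14447 genes higher and 39.1% lower in liver. Of these genes, 5.40% had a higher liver over breast muscle fold change than CDO1, 6.62% than CSAD and 11.3% than SLC6A6. For each member all 10 liver libraries lay above all 10 breast muscle libraries, which held for 24.7% of genes.

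The tissue difference of the transporter was also measured separately in the birds of each raising system. SLC6A6 was 4.30 times higher in liver than in breast muscle of organic birds, with a log2 fold change of 2.13 ± 0.29 (SE). In conventional birds it was 13.9 times higher, with a log2 fold change of 3.80 ± 0.31 (SE). Both values rest on the liver levels that chose the gene, as does the difference between them, -1.67 ± 0.40 (SE), and all are descriptions. For CDO1 the fold changes were 5.04 ± 0.35 in organic birds and 5.77 ± 0.37 in conventional birds (SE), a difference of -0.73 ± 0.44. For CSAD they were 4.75 ± 0.21 in organic birds and 4.26 ± 0.21 in conventional birds (SE), a difference of 0.49 ± 0.28. Over all genes, the edgeR test of whether the difference between raising systems itself differed between the tissues called 0%, with 771 of 14447 at an unadjusted p under 0.05 and 0 calls by DESeq2.

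The members also changed places in the order of levels per length. In liver this order rests on the SLC6A6 levels that chose the gene and is a description. In organic liver, CDO1 stood above CSAD and CSAD above SLC6A6 in all 5 libraries. In conventional liver, SLC6A6 stood second in 4 libraries, and the difference between its mean of 30.9 FPKM and the 25.1 FPKM of CSAD lay within the spread of SLC6A6. In organic breast muscle, the order was CDO1, SLC6A6 and CSAD in all 5 libraries. The same order held in 4 conventional breast muscle libraries, and replicate 3 had CSAD highest and CDO1 lowest. Among the genes tested in the tissue, 2.67% had a higher mean FPKM than CDO1 in organic liver and 2.53% in conventional liver, against 49.9% in organic and 65.7% in conventional breast muscle. For CSAD these shares were 15.1% in organic liver, 15.4% in conventional liver, 87.4% in organic breast muscle and 84.0% in conventional breast muscle. For SLC6A6 they were 29.5% in organic liver, 12.4% in conventional liver, 67.5% in organic breast muscle and 74.2% in conventional breast muscle.

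The neighbouring pathways were read through 11 lists with 106 distinct genes, of which 83 are in the table. In edgeR, 43 of the 71 tested genes were higher in liver than in breast muscle and 20 were lower, against 42.5% and 39.1% of all genes. Their median log2 fold change was 1.10, against 0.07 for all genes tested. Between the raising systems none of 70 passed in liver and none of 63 in breast muscle. In each tissue 5 listed genes had an unadjusted p under 0.05 in edgeR. Over all genes this held for 997 of 13186 in liver and 934 of 12496 in breast muscle, a similar share. DESeq2 called 0 of the listed genes.

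**Figure D4:**
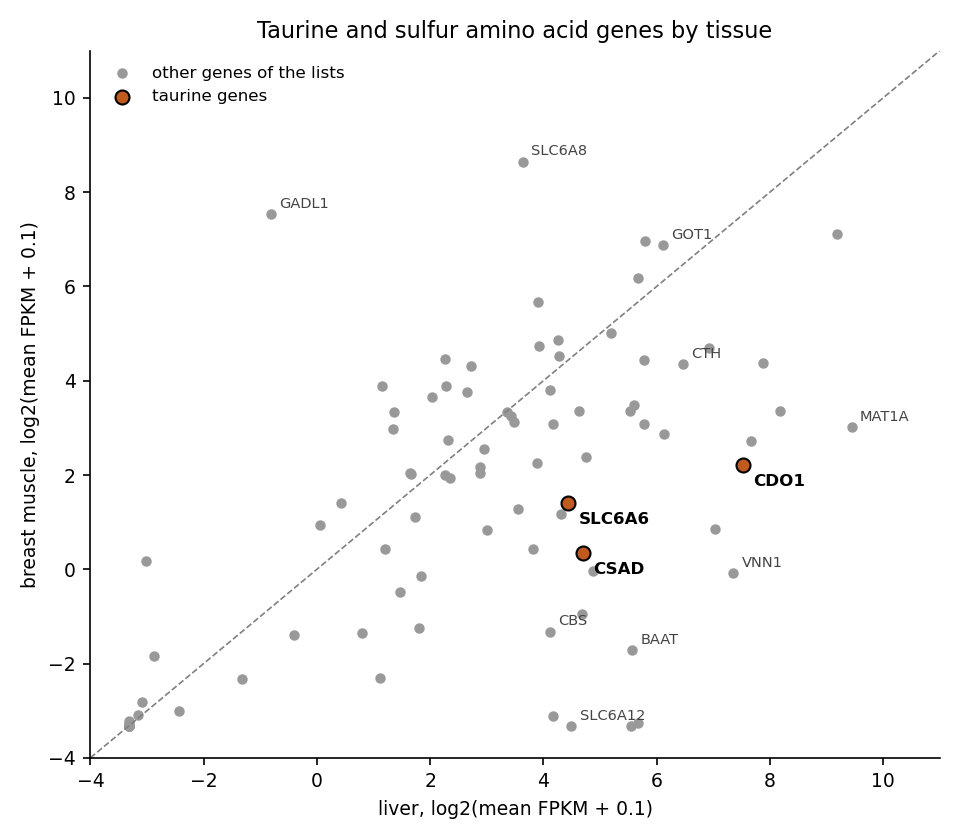
Mean FPKM of the listed pathway genes in liver against breast muscle, each mean over 10 libraries, on log2 axes after adding 0.1 FPKM, with the members marked. CDO1, CSAD and BAAT lie on the liver side of the diagonal and GADL1 and SLC6A8 far on the breast muscle side.

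GADL1 ran opposite to CSAD. It encodes a decarboxylase related to CSAD that in mice makes beta-alanine, a building block of carnosine, and also acts on cysteine sulfinic acid. GADL1 had 121 to 333 FPKM in organic and 110 to 273 FPKM in conventional breast muscle. In liver it had 0.190 to 0.728 FPKM in organic and 0.223 to 0.725 FPKM in conventional birds. Its log2 fold change, liver over breast muscle, was -8.60 ± 0.29 (SE), lower in liver in all 10 libraries. Between the raising systems in breast muscle it was 0.26 ± 0.29 (SE), with an adjusted p of 0.848 in edgeR.

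The steps before CDO1, which turn methionine into cysteine, had 7 of 11 tested genes higher in liver and 3 lower, against 42.5% and 39.1% of all genes. MAT1A, which makes S-adenosylmethionine, had a log2 fold change of 6.47 ± 0.35, and CBS, which joins homocysteine and serine, 5.84 ± 0.33 (SE, liver over breast muscle). AHCY, which releases homocysteine, was higher by 3.52 ± 0.15. MAT2B, a regulatory subunit of the other S-adenosylmethionine synthetase, was lower, at -1.74 ± 0.09, as was AHCYL2 at -2.21 ± 0.09. Between the raising systems in liver, MTRR, which reactivates methionine synthase, stood at 0.26 ± 0.15, given as a description. In breast muscle it stood at -0.44 ± 0.20 (SE), the one gene of this group with an unadjusted p under 0.05 there (0.0455 in edgeR), and it did not pass after adjustment. MTRR overlaps FASTKD3, so its values are uncertain.

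Other uses and sources of cysteine differed by group. All 3 glutathione synthesis genes were higher in liver, led by GCLC, the catalytic subunit of the first step, at 3.27 ± 0.17 (SE). Its organic over conventional value in liver was 0.48 ± 0.23. Of the cystine and cysteine carriers, 3 of 5 tested were higher in liver, against 42.5% of all genes. Among them were SLC1A1 at 4.41 ± 0.49 and SLC3A1 at 3.55 ± 0.24. SLC3A1, the heavy subunit of a cystine carrier, stood at -0.66 ± 0.29 in liver and 0.84 ± 0.35 in breast muscle between the raising systems, the second with an adjusted p of 0.647 in edgeR. Of the other genes of cysteine and taurine breakdown, 3 of 9 were higher in liver, below the share of all genes, including TST, a sulfurtransferase (2.26 ± 0.15). Another 3 were lower, including GADL1 and GOT1.

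Bile acid genes are where hepatic taurine is used, and all 9 tested were higher in liver, against 42.5% of all genes. BAAT, which joins bile acids to taurine or glycine, averaged 48.9 ± 16.5 FPKM in organic liver and 46.0 ± 6.87 FPKM in conventional liver (SD, n = 5 each). In breast muscle it averaged 0.322 FPKM in organic and 0.0853 FPKM in conventional birds, from 24 and 7 counts in all. BAAT was too low there to be tested between the raising systems. Its log2 fold change between the raising systems in liver was 0.07 ± 0.20 (SE), in contrast to the -1.34 of SLC6A6, and the difference between these genes was not tested. ABCB11, the export pump for conjugated bile acids, averaged 19.2 ± 5.68 FPKM in organic liver and 31.9 ± 9.12 FPKM in conventional liver (SD, n = 5 each), a log2 fold change of -0.74 ± 0.24 given as a description.

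Among the other carriers of the SLC6 family and those able to carry taurine, 5 of 7 tested were higher in liver and 1 was lower, against 42.5% and 39.1% of all genes. SLC6A12, which carries betaine and GABA, had 16.4, 16.9, 5.24, 23.2 and 20.8 FPKM in organic liver replicates 1 to 5, against 38.5, 36.9, 18.0, 14.4 and 34.2 FPKM in conventional liver replicates 1 to 5. As with SLC6A6, conventional replicate 4 lay within the organic range, and here replicate 3 did as well. The log2 fold change was -0.79 ± 0.39 (SE), a description. SLC6A12 had 0 counts in all 10 breast muscle libraries, where 3 counts per library would be at most 0.155 FPKM, so that its liver mean was at least 145 times higher. SLC6A8, the creatine transporter, was lower in liver by far, with a log2 fold change of -5.01 ± 0.14 (SE).

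The LRRC8 proteins form the volume-regulated anion channel through which cells release taurine when they swell. LRRC8D, a subunit linked in mammals to taurine release, was higher in liver at 3.23 ± 0.16, LRRC8B at 2.27 ± 0.11 and LRRC8A, the subunit every channel needs, at 0.42 ± 0.13 (SE). LRRC8C was lower in liver at -1.02 ± 0.15. Between the raising systems none of these 4 passed in breast muscle. The osmotic list includes NFAT5, the factor that raises SLC6A6 transcription under hypertonic stress in mammals. NFAT5 averaged 4.46 ± 1.57 FPKM in organic liver and 5.58 ± 1.36 FPKM in conventional liver (SD, n = 5 each). Its log2 fold change there was -0.33 ± 0.25 (SE), a description, and the groups overlapped. Of the 7 tested genes of that list, 5 had a positive and 2 a negative organic over conventional value in liver. HSPA4L, a heat shock protein induced by osmotic stress in mice, had the smallest p of that list in both tissues. It stood at 0.72 ± 0.27 in liver and 1.09 ± 0.37 in breast muscle (SE). The adjusted p in breast muscle was 0.567 in edgeR. Organic replicate 1 had the highest HSPA4L level in both tissues, at 25.5 FPKM in liver and 24.9 FPKM in breast muscle. The organic medians were 11.2 FPKM in liver and 9.09 FPKM in breast muscle.

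The genes around ADO were measured although ADO was not. Of the coenzyme A and cysteamine genes, 6 of 8 were higher in liver and 2 were lower, against 42.5% and 39.1% of all genes. VNN1, the pantetheinase that releases cysteamine, had a log2 fold change of 7.64 ± 0.24, liver over breast muscle, and PANK1, which starts coenzyme A synthesis, 4.95 ± 0.34 (SE). In breast muscle VNN1 averaged 0.641 ± 0.165 FPKM in organic and 1.06 ± 0.103 FPKM in conventional birds (SD, n = 5 each). That log2 fold change of -0.74 ± 0.23 (SE) had an unadjusted p of 0.00702 and an adjusted p of 0.567 in edgeR. In mammals ADO also oxidises N-terminal cysteines of regulatory proteins, which are then degraded through ATE1 and UBR ligases. All 6 genes of that branch were lower in liver, against 39.1% of all genes, among them the substrate RGS4 at -2.78 ± 0.22, UBR1 at -1.64 ± 0.12 and ATE1 at -1.59 ± 0.10 (SE). UBR1 was also among the genes most like SLC6A6 in liver. Its organic over conventional value there, -0.55 ± 0.15 (SE), comes from the same livers as that likeness, so it is not separate evidence. A link between this branch and SLC6A6 was not tested.

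In mitochondria taurine is attached to transfer RNAs, and the 3 genes of that list split between the tissues. TRMU was higher in liver at 0.74 ± 0.11, while GTPBP3 was lower at -1.98 ± 0.17 and MTO1 at -0.59 ± 0.10 (SE). In breast muscle between the raising systems GTPBP3 stood at 0.29 ± 0.20 and MTO1 at 0.19 ± 0.16, neither past the threshold.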

How the data were processed

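The deposited table gives read counts and FPKM per gene for 20 libraries. Tools recorded without a role, per the submitters' processing notes, are HISAT2 2.0.5 and DESeq2 1.20.0, and the build is GRCg6a. The tool that produced the counts was not given in the sources used here. FPKM as deposited by the authors equal the count over gene length and over a median-of-ratios factor, so they are already scaled between libraries. Deposited counts were tested with edgeR 4.0.16 in R 4.3.3 (quasi-likelihood, robust, TMM, filterByExpr with minimum count 10) within each tissue, and over 4 group means for tissue contrasts, two-sided, with Benjamini-Hochberg adjustment over all genes at 0.05. Each log2 fold change carries its SE. DESeq2 1.42.0, other scalings, no filter, limma 3.58.1 on log2(FPKM + 1), a replicate block and leaving out each library were alternatives. The test was also run on simulated data with known changes, and the outcome is not reported here.

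Members, lists and comparisons were chosen with earlier results of these data known. Named genes are the members and, per list, up to 4 per direction past the threshold or else up to 2 with the smallest p, leaving out AKR1B1, COASY, CYP7A1, GOT2, PANK4, PPCS, SGK1 and SLC27A2, which overlap other measured genes (MTRR, which overlaps FASTKD3, is uncertain). The 5 genes with the highest correlation to SLC6A6 per tissue, among genes with a symbol, were named too. Some genes that this rule picks are not reported here. No 2 libraries agreed within sampling noise. Precision is limited by 13 to 7109 counts per member and library.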

Additional observations from a re-analysis of the deposited data

Results flagged for a closer look

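CSAD in organic breast muscle replicate 3 had 0.722 FPKM, below the other 4 libraries of its group. Those lay between 1.05 and 1.11 FPKM. The value of replicate 3 rests on 24 counts, against 30 to 36 counts in those 4. Conventional breast muscle replicate 2, which was not flagged, was as low, at 0.713 FPKM from 25 counts. Of 12 groups of 5 values examined in this way for the members, chance alone marks about 1 in 20.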

How the results depend on the processing

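The log2 fold changes of SLC6A6, CDO1 and CSAD between liver and breast muscle stayed past the threshold under every alternative run, at 2.52 to 3.06 for SLC6A6, 5.16 to 5.53 for CDO1 and 3.63 to 4.56 for CSAD, with 11327 to 14353 genes called in all. In breast muscle no member passed between the raising systems under any alternative, with ranges of 0.16 to 0.46 for SLC6A6, 0.61 to 1.12 for CDO1 and -0.56 to -0.19 for CSAD. SLC6A6 in liver, a description, ranged from -1.53 to -1.21. The count of genes called between the raising systems was 0 in edgeR in each tissue. DESeq2 called 27 in liver and 10 in breast muscle, and leaving out each library gave 0 to 1 in breast muscle, with the 1 call without conventional replicate 4. The cause was not tested. With a replicate block edgeR called 0 genes in liver and 0 in breast muscle. Between tissues it called 11831, against 11779 without the block, and the block changed no other call. With the block, the edgeR adjusted p of the tissue difference rose to 2.25e-08 for SLC6A6 and 7.93e-11 for CDO1. Replicate numbers were not taken as pairing: same-numbered libraries of a tissue correlated at -0.144 to 0.142 in liver and -0.181 to 0.0783 in breast muscle, and liver and breast muscle of one number at 0.103 to 0.191 in organic and 0.0465 to 0.175 in conventional birds, so not every pair was above 0.1. As a hint from the data, 5 of 5 organic and 4 of 5 conventional pairs of liver and breast muscle matched best with their own number. Relative counting error is largest for CSAD and CDO1 in breast muscle, where the lowest counts were 24 and 13. No value could be had for ADO.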
